A study of Mus musculus with 6 samples.

Results

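The genes described here answer to bone morphogenetic proteins (BMPs): Id1, Id2, Id3, Id4, Smad6, Smad7, Smad9, Bambi and Atoh8. They were followed in intestinal fibroblasts of eosinophil-deficient and normal mouse pups. These 9 genes were chosen by name, and all 9 were present among the 15238 genes of the deposited table. RNA was sequenced in bulk from 6 libraries, 3 of the genotype DdblGata1 (replicates 4, 9 and 10) and 3 of the wild-type genotype (replicates 1, 3 and 4). Both groups were Balb/c pups at postnatal day 9. The DdblGata1 allele removes a site in the promoter of Gata1, whose product directs blood lineages, in the germline, and its carriers lack eosinophils. Cells that bore podoplanin but neither CD45, EpCAM nor CD31 were sorted, so leukocytes, epithelium and blood vessel lining were gated out. The labels do not say whether each library came from its own pup, or whether the pups were littermates. The p-values below therefore measure the spread between these libraries, which may in part be technical. In bulk RNA, fewer cells of a type and less RNA per cell cannot be told apart.

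BMPs bind paired type I and type II receptors, which phosphorylate Smad1, Smad5 and Smad9. These join Smad4 and enter the nucleus. Id1 to Id4 are among the most direct targets: the Id proteins lack a DNA-binding region and hold E proteins, the partners of tissue-specific basic helix-loop-helix (bHLH) factors, away from DNA. Smad6, Smad7 and Bambi are feedback inhibitors, and Atoh8 is itself a bHLH factor induced by BMP signals. In the gut, BMP activity is high along the villus and is held low around the crypt by antagonists that fibroblasts and muscle cells secrete.

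The library totals were 28110454 to 31210800 estimated counts. Each member had 208 to 3638 counts in a library, and at 208 counts the counting error alone is 6.93%. Levels are given as CPM, counts scaled by TMM to library size. Fibroblast markers were abundant in each library, with Col3a1 at 57310 to 64890 CPM in DdblGata1 and 44730 to 68480 CPM in wild-type libraries, and Pdgfra at 779 to 1080 CPM in DdblGata1 and 688 to 1013 CPM in wild-type libraries. All 9 fibroblast markers were measured, Pdpn at 41.5 to 53.9 CPM in DdblGata1 and 25.1 to 42.0 CPM in wild-type libraries. Thy1 had 179, 102 and 98.99 CPM in DdblGata1 and 44.2, 60.7 and 57.8 CPM in wild-type libraries (log2 fold change 1.22 ± 0.26 SE, edgeR adjusted p 0.384, DESeq2 adjusted p 0.00449), while Col1a1 and Col1a2 had fold changes of -0.44 and -0.28 with overlap. The 7 epithelial markers summed to 161 to 218 CPM in DdblGata1 libraries, against 670 CPM in wild-type replicate 1 and 139 and 153 CPM in the other wild-type libraries. The endothelial markers summed to 126 to 179 CPM in DdblGata1 and 70.2 to 92.0 CPM in wild-type libraries. This lay with Tek alone: without it the other 8 summed to 44.0, 39.55 and 27.7 CPM in DdblGata1 and 41.4, 35.4 and 42.1 CPM in wild-type libraries, and of the 9 genes 4 had higher and 5 lower values. Tek had 81.6 to 151 CPM in DdblGata1 and 28.8 to 56.6 CPM in wild-type libraries, while Pecam1, which encodes CD31, had 5.53 to 6.97 CPM in DdblGata1 and 3.37 to 7.78 CPM in wild-type libraries. The 7 measured leukocyte markers summed to 18.3 to 22.01 CPM in DdblGata1 and 18.3 to 43.2 CPM in wild-type libraries. Of 5 eosinophil markers, Ccr3 was the single one in the gene table, at 0.17 to 0.26 CPM in DdblGata1 and 0.36 to 1.10 CPM in wild-type libraries. In the transcript files, Epx had 0 estimated counts in each library. Prg2 had 0, 26 and 11 estimated counts in DdblGata1 replicates 4, 9 and 10 and 7, 3 and 2 in wild-type replicates 1, 3 and 4. Il5ra had 1.0, 11.1 and 13.6 in DdblGata1 and 4.0, 7.41 and 1.12 in wild-type libraries, and Siglecf 6, 1 and 7 in DdblGata1 and 16, 6 and 5 in wild-type libraries. The few reads of Prg2, Il5ra and Siglecf did not run one way between the genotypes. Ccr3, with at most 32 counts in a library, was lower in DdblGata1 libraries without overlap, as were 7.34% of all genes. Its log2 fold change was -1.65 (edgeR adjusted p 0.452).

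Promoter sequence helps to place the members, because BMP-activated Smads favour GC-rich DNA. RefSeq windows (GRCm38.p6) were found for 6 of the 9 members: Id2, Id3, Id4, Smad6, Smad9 and Atoh8. The 250 bases before the RefSeq start of each gene were searched for GGCGCC, a palindrome at the core of BMP response elements, and for GTCTG on both strands, a form of the Smad-binding box. GGCGCC stood once each in Id2, Id4 and Smad9 and not in Id3, Smad6 or Atoh8. It occurs in 9.59% of 32851 such windows. All 6 windows were rich in G and C: Id2, Id4 and Smad9 held 62.8%, 75.6% and 73.2%, and Id3, Smad6 and Atoh8, without GGCGCC, held 62.8%, 66.8% and 63.2%, against a median of 52.4% over all windows. GTCTG stood 2 times in Id3, on opposite strands, and in none of the other 5 windows, while 42.2% of all windows hold it. A spaced pair, GGCGCC followed after 5 bases by GTCT, found in 0.07% of windows, was in none of the 6. These are matches of letters and say nothing of binding. RefSeq and GENCODE starts differ for Id2, Id3 and Id4: the windows of Id2 and Id3 lie inside the longest GENCODE extent of these genes and are not shown, and that of Id4 ends before the GENCODE start. The windows of Smad6 and Atoh8, without GGCGCC, are not shown either. Those of Id4 and Smad9, whose levels varied most between the DdblGata1 libraries, are shown with GGCGCC in capitals. The relation of GGCGCC to that spread was not tested.
Id4, chr13:48260866-48261115, plus strand: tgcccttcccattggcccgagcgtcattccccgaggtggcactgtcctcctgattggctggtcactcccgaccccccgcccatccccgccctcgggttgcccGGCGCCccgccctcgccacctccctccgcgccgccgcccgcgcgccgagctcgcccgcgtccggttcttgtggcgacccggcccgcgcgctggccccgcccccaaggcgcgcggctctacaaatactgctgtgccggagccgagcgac
Smad9, chr3:54755332-54755581, plus strand: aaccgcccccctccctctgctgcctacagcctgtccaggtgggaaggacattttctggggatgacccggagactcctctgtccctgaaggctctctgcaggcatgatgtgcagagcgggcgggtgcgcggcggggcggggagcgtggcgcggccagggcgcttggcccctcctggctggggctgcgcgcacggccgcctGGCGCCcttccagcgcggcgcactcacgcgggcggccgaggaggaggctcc

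No BMP response gene passed a test between the genotypes. By edgeR's quasi-likelihood test 0 of 9 were called at an adjusted p under 0.05, as were 0% of all genes (0 of 15238), and DESeq2 called 0 of 9, against 1.4% of all genes. At an unadjusted p under 0.05, edgeR and DESeq2 each had 0 of 9, where edgeR had 10.3% and DESeq2 12% of all genes. None of the 9 had DdblGata1 values that lay wholly outside the wild-type values, which 16.3% of all genes had (8.98% with DdblGata1 higher and 7.34% with DdblGata1 lower). In DdblGata1 libraries 4 members had a higher and 5 a lower fitted value, with a median log2 fold change (DdblGata1 minus wild-type) of -0.09, against -0.01 over all genes. The SE of these fold changes was 0.18 to 0.35, so a moderate difference would not have been detectable with 3 libraries a group.

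**Figure D1:**
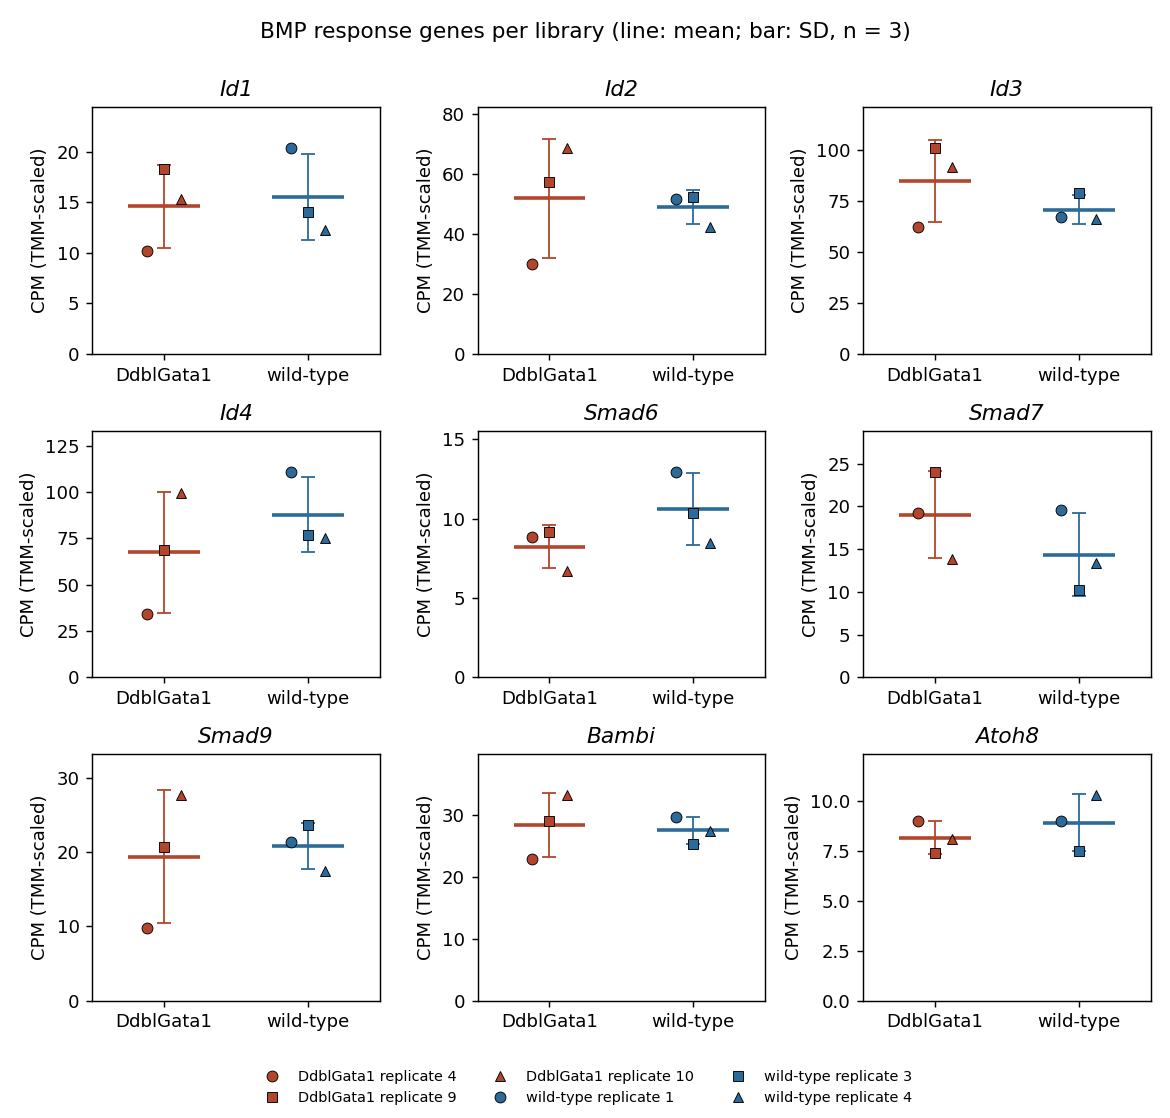
TMM-scaled CPM (vertical axes, each starting at 0) of the 9 BMP response genes in 3 DdblGata1 and 3 wild-type libraries; points are libraries, lines are means and bars are SD. The groups overlap in every panel, and DdblGata1 replicate 4 is the lowest library for Id1, Id2, Id3, Id4, Smad9 and Bambi.

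Id1 (chr2:152736251-152737410, GRCm38, plus strand) is the Id gene most used as a readout of BMP activity. It had 10.2, 18.3 and 15.3 CPM in DdblGata1 replicates 4, 9 and 10, and 20.3, 14.0 and 12.3 CPM in wild-type replicates 1, 3 and 4. Library values below keep this order of replicates. The highest and the lowest library thus came from different genotypes, yet the other values were interleaved. The means were 14.6 ± 4.10 CPM in DdblGata1 and 15.5 ± 4.23 CPM in wild-type libraries (SD, n = 3 each), and the log2 fold change was -0.09 (95% interval -0.74 to 0.55, edgeR adjusted p 0.915). Wild-type replicate 1, the highest for Id1, was also the library with 670 CPM of epithelial markers, whose part in the result was not tested. Without it the fold change was 0.13.

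Id2 (chr12:25093799-25097140, minus strand), which restrains E proteins in many mesenchymal and lymphoid cells, had 29.8, 57.2 and 68.6 CPM in DdblGata1 and 51.8, 52.5 and 42.3 CPM in wild-type libraries. The 3 wild-type libraries lay close together, while DdblGata1 libraries fell on both sides of them. Mean levels were 51.9 ± 19.9 CPM in DdblGata1 and 48.9 ± 5.69 CPM in wild-type libraries, with a log2 fold change of 0.09 (95% interval -0.57 to 0.74). The value was 0.36 without DdblGata1 replicate 4 and -0.18 without DdblGata1 replicate 10, with edgeR adjusted p-values of 0.306 and 0.942.

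Id3 (chr4:136143497-136145755, plus strand) was the most abundant member on the per-length scale. Its CPM were 62.1, 101 and 91.5 in DdblGata1 and 66.9, 78.9 and 66.0 in wild-type libraries. DdblGata1 replicates 9 and 10 exceeded each wild-type library, and DdblGata1 replicate 4 was below all of them. The means of 84.8 ± 20.2 CPM in DdblGata1 and 70.6 ± 7.20 CPM in wild-type libraries gave a log2 fold change of 0.26 (95% interval -0.19 to 0.72, edgeR adjusted p 0.635). Without DdblGata1 replicate 4 it was 0.44, with an unadjusted p of 0.0196 by edgeR and an edgeR adjusted p of 0.216. Id3 stayed above 0 in each of the 22 other settings tried, from 0.07 to 0.44, and passed the adjusted threshold in none of them. The lowest adjusted p was 0.0965, by DESeq2 without DdblGata1 replicate 4. Among these settings, that without a filter repeats the main fit for each member, as no gene was lost to filtering.

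Id4 (chr13:48261228-48266026, plus strand) can itself bind other Id proteins and is prominent in neural and glial cells. It had 34.2, 68.6 and 99.5 CPM in DdblGata1 and 111, 77.0 and 75.2 CPM in wild-type libraries. In DdblGata1 libraries its highest value was 2.91 times its lowest, against 1.48 times in wild-type libraries, and DdblGata1 replicate 10 lay within the wild-type range. The means were 67.4 ± 32.6 CPM in DdblGata1 and 87.7 ± 20.2 CPM in wild-type libraries (log2 fold change -0.38, 95% interval -1.19 to 0.43, edgeR adjusted p 0.699). Leaving out DdblGata1 replicate 4 moved the fold change to -0.06, and leaving out DdblGata1 replicate 10 moved it to -0.785. The 6 markers of enteric glia summed to 252, 154 and 169 CPM in DdblGata1 and 134, 341 and 298 CPM in wild-type libraries. The part of glial cells in the Id4 values was not tested.

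On the scale of TPM, transcript abundance per length and library depth, the 4 Id genes together had 200, 349 and 349 TPM in DdblGata1 and 290, 269 and 248 TPM in wild-type libraries. By mean TPM the order was Id3, Id2, Id4 and Id1 in both groups. Id3 made up 50.7%, 46.7% and 40.7% of the Id total in DdblGata1 libraries, against 34.7%, 42.7% and 42.0% in wild-type libraries. Id2 held 27.5% to 34.4% in DdblGata1 and 30.3% to 32.1% in wild-type libraries, and Id1 held 10.2% to 12.8% in DdblGata1 and 11.4% to 15.9% in wild-type libraries. The share of Id4 was 9.27%, 10.55% and 14.7% in DdblGata1 libraries, against 19.1%, 13.8% and 15.9% in wild-type libraries. All of these shares overlapped between the genotypes.

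The inhibitory and receptor Smads, Bambi and Atoh8 had lower levels per length. Mean TPM were 17.7 ± 5.11 in DdblGata1 and 12.6 ± 4.28 in wild-type libraries for Smad7 (SD, n = 3 each). Bambi had 10.2 ± 1.63 TPM in DdblGata1 and 9.41 ± 0.95 TPM in wild-type libraries, and Atoh8 had 6.91 ± 0.77 TPM in DdblGata1 and 7.16 ± 1.43 TPM in wild-type libraries. Smad9 had 6.02 ± 2.68 TPM in DdblGata1 and 6.13 ± 0.69 TPM in wild-type libraries, and Smad6 had 4.26 ± 0.79 TPM in DdblGata1 and 5.16 ± 1.02 TPM in wild-type libraries. In each library Id3 was the highest and Id2 the next, and the values of Id4 and Id1 overlapped each other across the 6 libraries. Smad7, Bambi, Atoh8, Smad9 and Smad6 overlapped their neighbours in this order.

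Smad6 (chr9:63953076-64022059, minus strand), the inhibitor that acts mainly on BMP receptors, had 8.84, 9.17 and 6.72 CPM in DdblGata1 and 13.0, 10.4 and 8.48 CPM in wild-type libraries. The DdblGata1 values sat at the low end of the wild-type range and overlapped it. Its means were 8.24 ± 1.33 CPM in DdblGata1 and 10.6 ± 2.25 CPM in wild-type libraries, with a log2 fold change of -0.36 (95% interval -0.93 to 0.20, edgeR adjusted p 0.599). The value was below 0 in all 22 other settings, from -0.50 to -0.21, with no adjusted p under 0.456. Wild-type replicate 1, with its epithelial and leukocyte markers, was the highest library here too, and without it the value was -0.22.

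Smad9 (chr3:54755582-54801257, plus strand), also called Smad8, is a receptor-activated Smad whose transcription BMP raises. Its CPM were 9.79, 20.7 and 27.7 in DdblGata1 and 21.4, 23.7 and 17.4 in wild-type libraries. As for Id2, the wild-type libraries lay inside the span of the DdblGata1 libraries. The log2 fold change was -0.10 (95% interval -0.90 to 0.69), and it was 0.22 without DdblGata1 replicate 4 and -0.46 without DdblGata1 replicate 10. Bambi, a decoy receptor on chromosome 18 without a kinase domain, had 22.95, 29.1 and 33.3 CPM in DdblGata1 and 29.7, 25.4 and 27.6 CPM in wild-type libraries (log2 fold change 0.045, 95% interval -0.38 to 0.47). Atoh8 (chr6:72206177-72235577, minus strand) had 9.02, 7.38 and 8.10 CPM in DdblGata1 and 8.997, 7.48 and 10.3 CPM in wild-type libraries (log2 fold change -0.13, 95% interval -0.645 to 0.39). A log2 fold change of 1 in either direction lay outside the interval of each BMP response gene except Id4 and Smad7.

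**Figure D2:**
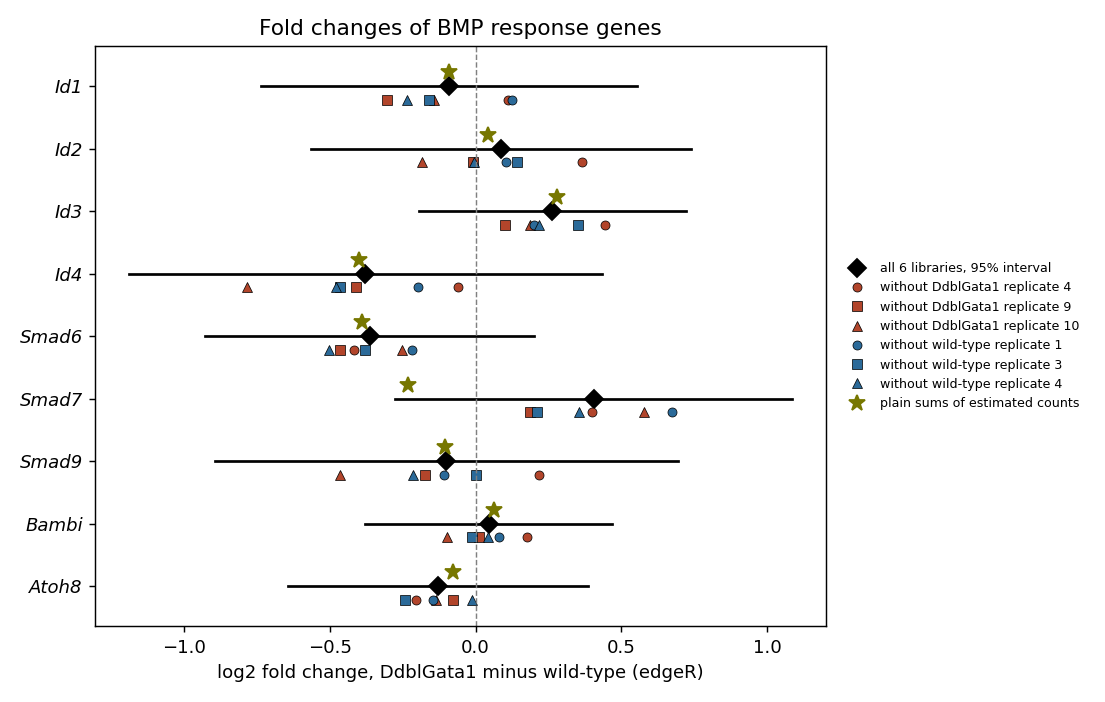
Log2 fold change, DdblGata1 minus wild-type, of each BMP response gene by edgeR with all 6 libraries (diamond, 95% interval), without each library in turn (coloured symbols) and from plain sums of estimated counts (star). Every interval crosses 0, and the star of Smad7 (-0.23) lies on the other side of 0 from its diamond (0.41).

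Smad7, on chromosome 18, blocks both BMP and TGF-beta receptors, and its direction depended on how transcripts were summed. In the deposited gene table it had 19.3, 24.1 and 13.8 CPM in DdblGata1 and 19.6, 10.2 and 13.3 CPM in wild-type libraries. That gave a log2 fold change of 0.41 (95% interval -0.28 to 1.09, edgeR adjusted p 0.624), the largest of the members. It was 0.19 without DdblGata1 replicate 9, 0.21 without wild-type replicate 3 and 0.675 without wild-type replicate 1. Plain sums of the estimated counts of its transcripts were 400, 566 and 322 in DdblGata1 and 673, 454 and 474 in wild-type libraries. From such sums over all genes the log2 fold change was -0.23 (edgeR adjusted p 0.667), and from sums over protein-coding transcripts alone, chosen after the data were seen, it was -0.25.

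The transcript Smad7-203, a non-coding form of 392 bases, went with the gap. It had 7.15, 11.1 and 10.8 estimated counts in DdblGata1 and 5.44, 0.0 and 0.36 in wild-type libraries. On the per-length scale these few reads became 9.95, 10.4 and 7.92 TPM in DdblGata1 and 5.82, 0.0 and 0.43 TPM in wild-type libraries. Smad7-203 therefore took 54.7%, 46.2% and 63.8% of the gene's TPM in DdblGata1 and 34.0%, 0.0% and 3.57% in wild-type libraries (means 54.9% ± 8.80 in DdblGata1 and 12.5% ± 18.7 in wild-type libraries; exact two-sided permutation p = 0.1, the smallest that 3 against 3 allows). Of the estimated counts its share was 1.79% to 3.37% in DdblGata1 and at most 0.81% in wild-type libraries. The deposited gene counts are TPM rescaled by a mean gene length, so they carry the per-length share. The main coding form, Smad7-201 of 4278 bases, had 331, 500 and 299 estimated counts in DdblGata1 and 614, 405 and 411 in wild-type libraries, and held 82.7% to 92.8% of the gene's estimated counts in DdblGata1 and 86.6% to 91.2% in wild-type libraries. TPM of all forms other than Smad7-203 were 8.24, 12.2 and 4.50 in DdblGata1 and 11.3, 8.58 and 11.8 in wild-type libraries, and overlapped.

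**Figure D3:**
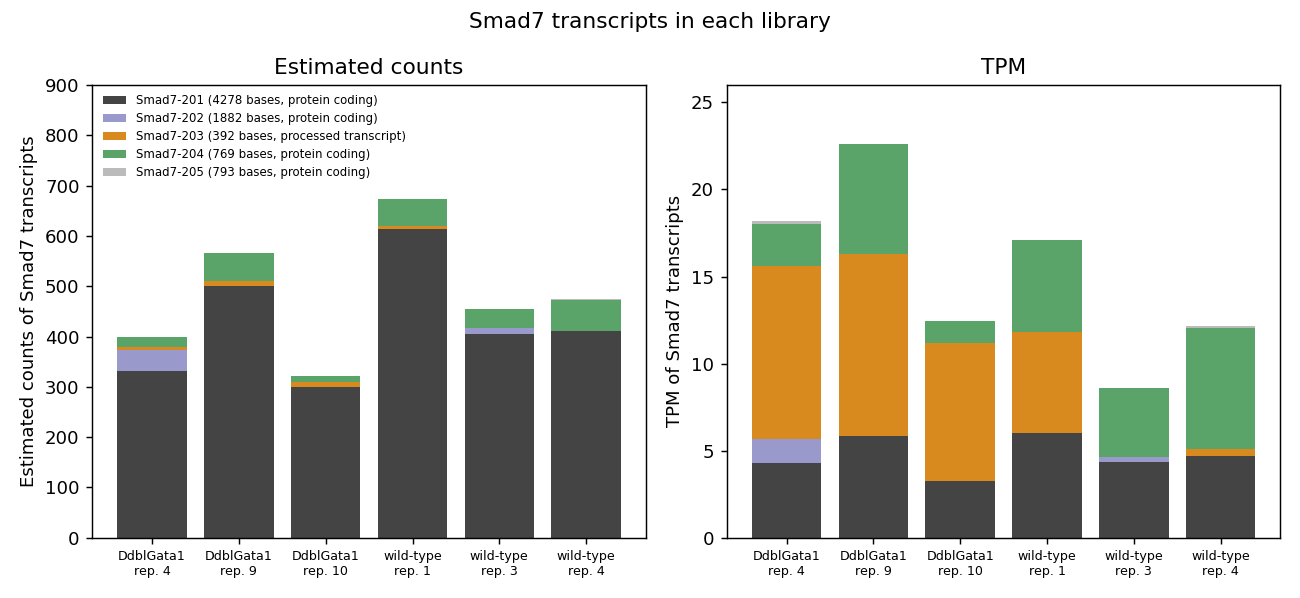
Estimated counts (left) and TPM (right) of the 5 Smad7 transcripts, stacked, in 3 DdblGata1 and 3 wild-type libraries. Smad7-203, at most 11.1 estimated counts in a library, is barely visible on the left and fills 46.2% to 63.8% of the DdblGata1 bars on the right.

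Such a gap was rare among the members. The log2 fold change from the gene table differed from that of plain sums by 0.64 for Smad7 and by at most 0.05 for the other 8 members. Over all genes it differed by 0.5 or more in 3.62%, and the median difference was 0.05. In the other members 1 coding form carried most of the reads. Id1-201 held 93.9% to 100.0% of the TPM of Id1 in DdblGata1 and 96.9% to 98.4% in wild-type libraries. Id3-201 held 89.9% to 96.8% in DdblGata1 and 91.8% to 94.9% in wild-type libraries, the rest being a form with a retained intron. Id2-201 held 81.5% ± 4.24 in DdblGata1 and 78.3% ± 3.17 in wild-type libraries (exact two-sided permutation p = 0.5). Atoh8 was divided: its coding form held 49.7% ± 10.8 in DdblGata1 and 47.1% ± 4.92 in wild-type libraries (exact two-sided permutation p = 0.8), and a form marked for nonsense-mediated decay held 48.7% ± 11.04 in DdblGata1 and 46.5% ± 2.17 in wild-type libraries. Id4, Smad9 and Bambi had a single transcript each in the index, and Smad6 had reads from 1 of 3.

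The spread within the DdblGata1 group differed between the members. Among 10105 genes with a mean log2 CPM of at least 3, the median SD of log2 CPM was 0.22 in DdblGata1 and 0.20 in wild-type libraries. For Id4, Smad9 and Id2 it was 0.78, 0.77 and 0.63 in DdblGata1 libraries, above 98.3%, 98.2% and 95.5% of these genes, and 0.31, 0.22 and 0.17 in wild-type libraries. Bambi, Smad6 and Atoh8 had SDs of 0.27, 0.24 and 0.14 in DdblGata1 libraries, above 61.0%, 55.0% and 27.7% of these genes. DdblGata1 replicate 4 was the lowest of the 6 libraries for 6 of 9 members, while it was the lowest for 16.2% of all genes. The exceptions were Smad6, Smad7 and Atoh8, and this library was the highest for no member. Across the 6 libraries the log2 CPM of Id2 and Smad9 had a Pearson r of 0.97, that of Id4 and Smad9 0.90 and that of Id2 and Bambi 0.87. Without DdblGata1 replicate 4 these were 0.90, 0.45 and 0.69 over 5 libraries. They are the 3 highest of 36 pairs over the 6 libraries and are given as a description, since the points share library depth and cell make-up.

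Over all genes, DdblGata1 replicate 10 was the lowest library for 23.6% and the highest for 24.3%, against 16.2% and 15.1% for DdblGata1 replicate 4. DdblGata1 replicate 4 stood apart from the other DdblGata1 libraries in some other measures and lay close to them in others. Its Col1a1 was 42390 CPM, against 19380 and 16400 CPM in the other DdblGata1 libraries and 30660 to 43730 CPM in wild-type libraries. Its Col1a2 was 36010 CPM, against 19710 and 18420 CPM in the other DdblGata1 libraries and 25150 to 38050 CPM in wild-type libraries. Its Thy1 was 179 CPM, against 102 and 98.99 CPM in the other DdblGata1 libraries and 44.2 to 60.7 CPM in wild-type libraries. Col3a1 and Dcn, also fibroblast markers, set DdblGata1 replicate 4 less apart. Its Col3a1 was 59060 CPM, against 57310 and 64890 CPM in the other DdblGata1 libraries. Its Dcn was 6067 CPM, against 6288 and 8393 CPM in them. Sox10, a marker of glia, was at 71.7 CPM, against 30.05 and 28.6 CPM in the other DdblGata1 libraries and 32.0 to 93.0 CPM in wild-type libraries. S100b, another marker of glia, differed less, at 10.2 CPM against 8.04 and 8.88 CPM in the other DdblGata1 libraries. Its smooth muscle markers summed to 5412 CPM, against 8351 and 6787 CPM in the other DdblGata1 libraries and 7813 to 12410 CPM in wild-type libraries. Its lymphatic endothelial markers summed to 232 CPM, against 68.6 and 101 CPM in the other DdblGata1 libraries and 74.0 to 190 CPM in wild-type libraries, nearly all of it Ccl21a, with Lyve1 at 0.88 CPM and Prox1 at 1.43 CPM in that library. The 5 pericyte markers summed to 1370, 1471 and 1394 CPM in DdblGata1 and 2326, 1945 and 1771 CPM in wild-type libraries. These sums did not overlap between the genotypes, and that of DdblGata1 replicate 4 lay close to those of its genotype. Most of each sum was Rgs5, at 824 to 887 CPM in DdblGata1 and 1131 to 1586 CPM in wild-type libraries. Of the 5 markers 4 had lower values, while Notch3 had a higher one with overlap (log2 fold change 0.13). Notch3 was at 107 CPM in DdblGata1 replicate 4, against 62.9 and 46.2 CPM in the other DdblGata1 libraries. The part of cell make-up in the low Id values of DdblGata1 replicate 4, or in any fold change between the genotypes, was not tested.

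The genes closest to each Id gene across the 6 libraries were taken by Pearson r of log2 CPM. For Id1 they were Mtx2 (0.99), Churc1 (0.99) and Fam216a (0.99), for Id2 Psma6 (0.995), Vdac2 (0.99) and Il13ra1 (0.99), for Id3 Creg1 (0.99), Hoxa5 (0.99) and Cox15 (0.99), and for Id4 Atad2 (0.98), Tbc1d22a (0.98) and Esd (0.98). With 6 libraries many genes come this close: 27, 51, 49 and 21 of 10104 genes had an r of at least 0.95 with Id1, Id2, Id3 and Id4. No gene stood in the top 3 of more than 1 Id gene.

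Upstream of the members, BMP ligands had a median log2 fold change of -0.18 over 8 measured genes of 14 listed. By edgeR 0 passed the adjusted threshold, and at an unadjusted p under 0.05 none was higher (6.03% of all genes) and 1 lower (4.23% of all genes). Bmp2 had 20.1, 16.2 and 11.9 CPM in DdblGata1 and 34.6, 16.9 and 28.6 CPM in wild-type libraries (log2 fold change -0.73 ± 0.30 SE, edgeR adjusted p 0.483). Bmp4, made by villus fibroblasts near the epithelium, had 105, 67.7 and 50.95 CPM in DdblGata1 and 116, 88.2 and 138 CPM in wild-type libraries (-0.61 ± 0.28, edgeR adjusted p 0.493). Both groups of values overlapped, and the value of Gdf6 was -0.59. DdblGata1 replicate 4 had the highest Bmp4 of its genotype and the lowest values of Id1 to Id4. This is 1 library, and the relation of Bmp4 to the Id levels was not tested.

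Secreted antagonists had a median of 0.13 over 13 measured genes, with 0 past the adjusted threshold. Fstl1 had a value of 0.45 and Grem1, the crypt-base antagonist, -0.34.

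Among 10 receptors and coreceptors the median was 0.08. At an unadjusted edgeR p under 0.05, 1 gene was higher (6.03% of all genes) and 0 lower (4.23% of all genes). The higher one was Acvr2a, a type II receptor (0.72 ± 0.27, edgeR adjusted p 0.461). Rgmb, a BMP coreceptor, had -0.34, and Bmpr2, the main BMP type II receptor, 0.34. Of the activating Smads, those of the BMP branch had values near 0: Smad1 had -0.06 ± 0.16, Smad5 0.11 ± 0.15 and the shared partner Smad4 -0.05 ± 0.16. In the TGF-beta branch Smad2 had -0.01 ± 0.15. Smad3 had 89.98, 86.9 and 82.9 CPM in DdblGata1 and 58.2, 66.8 and 57.4 CPM in wild-type libraries, which did not overlap (0.51 ± 0.13, edgeR adjusted p 0.384, DESeq2 adjusted p 0.0613). It was the 1 activating Smad at an unadjusted edgeR p under 0.05 (10.3% of all genes).

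Inside the cell, 12 genes that restrain the pathway, 3 of them members, had a median of 0.05. Of these, 0 had an unadjusted edgeR p under 0.05 (10.3% of all genes). Without overlap between the genotypes, 2 of the 12 were higher in DdblGata1 (8.98% of all genes) and 1 was lower (7.34% of all genes). All were ubiquitin ligase genes: Smurf1 (0.28) and Smurf2 (0.25) were higher and Nedd4l (-0.27) was lower. Pmepa1 had -0.69 with overlap. Of 10 bHLH genes, for E proteins and their tissue-specific partners, 1 was lower (4.23% of all genes) and 0 higher (6.03% of all genes) at an unadjusted edgeR p under 0.05. Tcf21, a fibroblast bHLH factor, had 110, 80.8 and 64.3 CPM in DdblGata1 and 183, 130 and 148 CPM in wild-type libraries (-0.85 ± 0.23, edgeR adjusted p 0.384). DESeq2 called it lower, with an adjusted p of 0.0404 (0.473% of all genes were called lower by DESeq2). Scx had -1.08 at no more than 1.45 CPM in any library, and Msc 0.48.

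**Figure D4:**
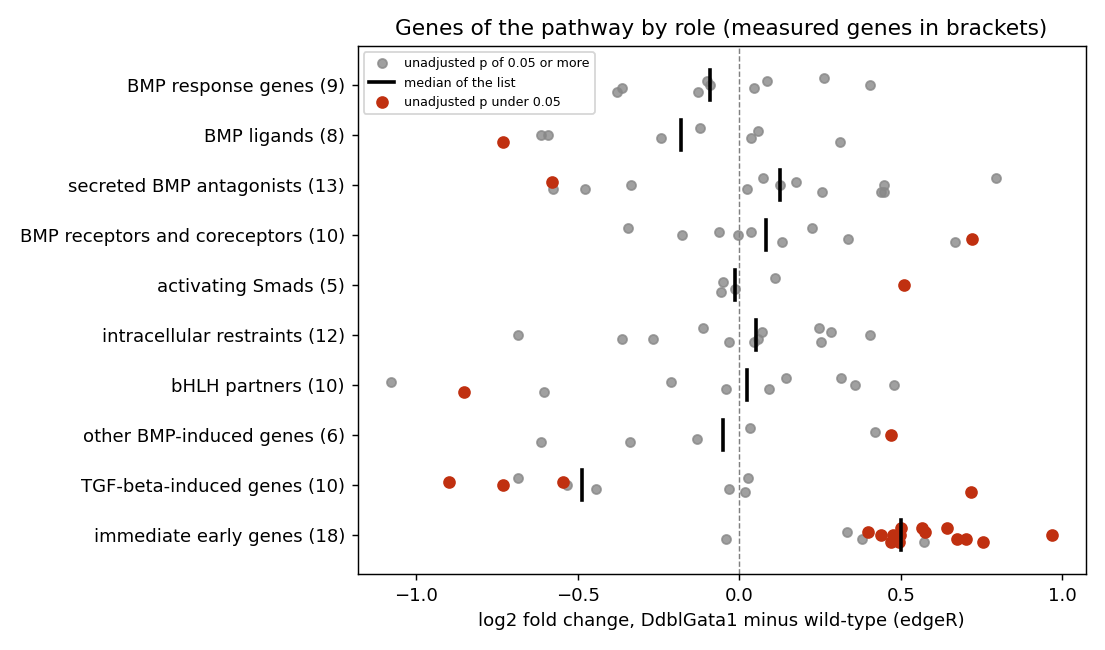
Log2 fold change, DdblGata1 minus wild-type, of each measured gene by role; bars are list medians and filled red points have an unadjusted edgeR p under 0.05, and no gene passed the adjusted threshold. The BMP response genes span -0.38 to 0.41 with none in red, while 14 of 18 immediate early genes are red and to the right of 0. Of all genes, 6.03% were higher and 4.23% lower at that p.

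Readouts of neighbouring pathways were taken next. Of 6 further BMP-induced genes, 1 was higher (6.03% of all genes) and 0 lower (4.23% of all genes) at an unadjusted edgeR p under 0.05. The higher one was Junb, a subunit of AP-1 (0.47 ± 0.16, edgeR adjusted p 0.445). Msx1, a homeobox target of BMP, had 3.45, 3.54 and 3.33 CPM in DdblGata1 and 2.38, 3.0 and 2.32 CPM in wild-type libraries (0.42 ± 0.30), and Dlx3 was below 1 CPM throughout. The 10 TGF-beta-induced genes had a median of -0.49. In DdblGata1 libraries 3 of them were lower (4.23% of all genes) and 1 higher (6.03% of all genes) at an unadjusted edgeR p under 0.05. Ltbp2 (-0.90 ± 0.26), a matrix protein of elastic fibres, and Tgfbi (-0.545 ± 0.18) had lower values without overlap, with edgeR adjusted p-values of 0.402 and 0.436. The 18 immediate early genes, which cell dissociation can induce and to which Junb belongs as well, had a median of 0.50. At an unadjusted edgeR p under 0.05, 14 were higher (6.03% of all genes) and 0 lower (4.23% of all genes). Zfp36 (0.97 ± 0.20), Socs3 (0.70 ± 0.16) and Klf6 (0.645 ± 0.15) led them, each with an edgeR adjusted p of 0.384, and DESeq2 called 4 of the 18 higher, these 3 among them at adjusted p-values of 0.00188, 0.0145 and 0.0253 (0.932% of all genes were called higher by DESeq2). These values came from the same libraries in which the Id genes overlapped with wild-type, and their part in the member values was not tested.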

How the data were processed

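Bulk RNA-seq of sorted fibroblasts was analysed in 6 libraries, grouped by the genotype in the labels. Libraries were stranded, per the labels' protocols. The submitters' processing notes name bcl2fastq 2.2, kallisto, R 4.2.2, DESeq2 and the builds mm10 and GRCm38.p6, with no role stated for any of them.

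The gene table deposited by the authors holds whole-number estimated counts (expected counts); no gene has fewer than 10 in its third-highest library. Transcript files deposited by the authors hold estimated counts, TPM and other values (lengths in bases) for 115270 transcripts. Assigned with GENCODE M21, TPM summed per gene, multiplied by mean effective length and scaled to the library total equalled 99.7% of the gene table within 1% plus 1 count; plain sums equalled 26.3%. The table is thus length-scaled. For each library the sample sheet deposited by the authors lists a size factor, a ratio, and 2 surrogate variables, each a score, without their method.

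Tests on the gene table used edgeR 4.0.16 (R 4.3.3; TMM scaling, robust quasi-likelihood fit, no gene lost to filterByExpr, Benjamini-Hochberg over 15238 genes at 0.05). SE is the fold change over the root of F. Log2 CPM used a prior count of 2. Alternatives were DESeq2 1.42.0, limma-voom and limma on log2(TPM + 1) or log2(TPM + 0.1) (limma 3.58.1), other scaling, filters and counting, the surrogate variables, and leaving out each library. Scripts were tested on simulated data. Of 50 genes changed 2-fold there, edgeR recovered 11 and DESeq2 16. At an adjusted p under 0.05 DESeq2 also called 43 unchanged genes, edgeR 5 and limma-voom 7. Members and lists were chosen with earlier results of these data known. Beyond the 9 members, the genes named were the 3 of smallest edgeR p in each list, all activating Smads and Smurf2. The 3 genes of highest Pearson r with each Id gene were named too. Marker genes were chosen after their values were seen. Counting error alone limits counts of 0, which allow up to 3. Sequences of proteins were not used here. Some genes that this rule names are not reported here.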

Additional observations from a re-analysis of the deposited data

How the results depend on the processing

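No setting called a BMP response gene at an adjusted p under 0.05, and none separated the groups for any of the 9 (other scaling, plain sums, TPM). Of 198 recomputed fold changes 20 changed sign, in Id1, Id2, Smad7, Smad9 and Bambi, and none of these was called. The 198 include the setting without a filter, which could not differ from the main fit because no gene was lost. With the deposited surrogate variables Id2 was -0.25 and Bambi -0.038, and 3 genes had an unadjusted p under 0.05: Id4 (-0.71), Smad9 (-0.56) and Smad7 (0.72), with edgeR adjusted p-values of 0.211 to 0.245. Plain sums gave -0.23 for Smad7 and sums over coding transcripts -0.25. Leaving out single libraries gave edgeR ranges of -0.303 to 0.126 for Id1, -0.183 to 0.364 for Id2, 0.102 to 0.444 for Id3, -0.785 to -0.062 for Id4, -0.502 to -0.218 for Smad6, 0.188 to 0.675 for Smad7, -0.241 to -0.013 for Atoh8, -0.465 to 0.217 for Smad9 and -0.099 to 0.177 for Bambi. DESeq2 without single libraries, chosen after the data were seen, changed the sign of Id1 (0.108 without DdblGata1 replicate 4, 0.137 without wild-type replicate 1), Id2 (-0.173 without DdblGata1 replicate 10, -0.006 without wild-type replicate 4), Smad9 (0.213 without DdblGata1 replicate 4) and Bambi (-0.091 without DdblGata1 replicate 10, -0.012 without wild-type replicate 3). By edgeR it gave 0 or 1 BMP response gene at an unadjusted p under 0.05: 1 without DdblGata1 replicate 4 (Id3), DdblGata1 replicate 10 (Id4) or wild-type replicate 1 (Smad7). Over the whole table edgeR called 0 genes, and 0 to 1 without single libraries; DESeq2 called 214, and without DdblGata1 replicates 4, 9 and 10 it called 1025, 84 and 43, without wild-type replicates 1, 3 and 4 106, 239 and 165. The share of Atoh8-201 in its gene differed between DdblGata1 and wild-type libraries by 2.59 percentage points by TPM and -0.0363 by estimated counts (exact permutation p of 0.8 and 1.0). The causes were not tested, beyond the counting of Smad7-203. No paired analysis was possible because the genotypes share 1 replicate number only. With 3 libraries a group, the intervals of the fold changes, rather than depth, set what could be detected.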
